A study of Mus musculus with 12 samples.

Results

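The calcineurin subunits and Rcan regulators described here are 7 genes: the phosphatase subunit genes Ppp3ca, Ppp3cb, Ppp3cc and Ppp3r1, and the regulator genes Rcan1, Rcan2 and Rcan3. They were chosen by name, through the platform table, and are 7 of 18194 genes and 18 of 45101 probe sets on the array. Of these 18 probe sets, 14 passed the filter on low signal, and all 7 genes were tested. The brightest probe set by mean over 12 arrays stood for its gene.

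RNA of whole corneas from C57BL/6J mice was measured on 12 Affymetrix arrays, 1 per sample. The 8 intact corneas were null for both genes (DKO; Dscr-1-/- and ApoE-/-), Dscr1-null (Dscr1KO), Apoe-null (ApoeKO) or wild type (WT), with 2 samples each that the labels call biological replicates. The 4 sutured corneas, 1 array each, were Dscr1KO at day 5, Dscr-1 Tg at day 7, WT at day 5 and WT at day 7 after suturing. Dscr1 is the older name of Rcan1, the gene that the null and Tg labels refer to. The labels and series text used here do not give the promoter of the transgene, the number of animals behind each RNA sample, or their age and sex.

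Calcineurin is a phosphatase that calcium and calmodulin switch on. It joins a catalytic A subunit, encoded by Ppp3ca, Ppp3cb or Ppp3cc, to a calcium-binding B subunit, encoded by Ppp3r1, and removes phosphate from NFAT transcription factors, which then enter the nucleus. Rcan proteins bind calcineurin and can inhibit it, and a short Rcan1 transcript from an internal start is itself induced by calcineurin and NFAT, a feedback loop known from endothelium among other tissues.

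Since that loop runs through NFAT, the 250 bases before the start of the members were read from RefSeq (GRCm38.p6) and searched for the NFAT core GGAAA, which reads TTTCC on the opposite strand; no other motif was searched. There were 8 such windows for 5 of the 7 members, Ppp3ca and Ppp3cc not among them. Both starts of Rcan1 are shown because they differ in matches, and Rcan3 and Ppp3cb because their signals are set beside Rcan1 below. Sequences run 5′ to 3′ on the gene's strand, and capitals mark each match.
Rcan1 downstream start, chr16:92400079-92400328, minus strand: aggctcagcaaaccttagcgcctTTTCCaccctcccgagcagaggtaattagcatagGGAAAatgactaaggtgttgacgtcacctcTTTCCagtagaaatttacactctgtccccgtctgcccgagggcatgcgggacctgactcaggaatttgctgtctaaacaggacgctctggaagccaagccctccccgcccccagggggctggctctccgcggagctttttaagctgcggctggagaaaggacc
Rcan1 upstream start, chr16:92466170-92466419, minus strand: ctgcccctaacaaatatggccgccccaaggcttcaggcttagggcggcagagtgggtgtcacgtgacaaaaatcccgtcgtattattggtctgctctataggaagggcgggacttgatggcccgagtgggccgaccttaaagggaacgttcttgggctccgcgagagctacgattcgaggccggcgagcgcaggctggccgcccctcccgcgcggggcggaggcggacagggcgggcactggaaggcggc
Rcan3 start, chr4:135433806-135434055, minus strand: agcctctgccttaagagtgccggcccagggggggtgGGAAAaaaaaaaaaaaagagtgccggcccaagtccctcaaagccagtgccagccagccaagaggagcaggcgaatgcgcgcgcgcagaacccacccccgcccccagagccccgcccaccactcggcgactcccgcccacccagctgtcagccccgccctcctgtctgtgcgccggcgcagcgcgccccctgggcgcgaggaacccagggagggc
Ppp3cb start, chr14:20546574-20546823, minus strand: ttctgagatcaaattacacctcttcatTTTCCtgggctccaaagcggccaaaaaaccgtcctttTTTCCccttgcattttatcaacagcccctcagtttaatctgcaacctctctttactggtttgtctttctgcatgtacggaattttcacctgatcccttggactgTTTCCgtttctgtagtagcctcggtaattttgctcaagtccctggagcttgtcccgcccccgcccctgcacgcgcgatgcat
Rcan1 lies at chr16:92391951-92466169 on the minus strand. Its downstream start had 1 GGAAA, 193 bases before the start, and 2 TTTCC, 227 and 163 bases before it, whereas its upstream start had none. Rcan3 (chr4:135412308-135433871) had 1 GGAAA and Ppp3cb (chr14:20499364-20546573) had 3 TTTCC. Of the 3 Rcan2 windows (chr17:43801352-44039516), 1 held 2 matches and the others none, and Ppp3r1 (chr11:17159298-17200380) had none. A match is common by itself, since 55.6% of all 32851 windows of this length held at least 1 and 21.4% held 2 or more. Ppp3ca lies at chr3:136669714-136937727 and Ppp3cc at chr14:70217864-70289536. The files used here do not place the array's probe sets along these genes, so no probe set is tied to a start.

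Some libraries stood apart or went against their labels. The library labelled ApoeKO replicate 1 had an Apoe signal of 849.3, against 7.5 in replicate 2. The library labelled Dscr1KO replicate 2 has a source label that names ApoE-/-, and its Apoe signal of 316.8 was below that of Dscr1KO replicate 1, 1272. Without both libraries, calls of members and of named genes of the pathway lists other than F3 (not refitted) held below unless values are given. DKO replicate 1 alone had a high summed signal of photoreceptor markers, 3934.9, against at most 319.5 on any other array, and of neuron markers, 1926.9, against at most 354.8. Xist, which female cells express, was between 4104 and 5385.2 on DKO replicate 1 and on both arrays each of Dscr1KO and ApoeKO, and at most 19.6 on the other 7 arrays. Within a group it differed only between the DKO replicates. A term for Xist in the fits below thus rested on those replicates. It cannot separate sex from other differences between them. Of markers of the labelled tissue, Krt12, a corneal epithelial keratin, read 5291.1 or more on every array. Kera, a keratocyte proteoglycan, read 441.3 to 1677 on intact arrays without Dscr1 and 3451.6 to 4992.8 on those with it. On the sutured arrays Kera read 3018.7 to 4402.9. Array medians were 15.6 to 21.1 after scaling to a trimmed mean of 100, and replicate arrays differed at 2-fold in 1147 genes in DKO, 1648 in Dscr1KO, 381 in ApoeKO and 215 in WT. With so few arrays per group, their number limits the precision.

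In intact corneas without Dscr1, Rcan1 and Ppp3ca signals were lower than in those with it, and the other 5 members did not pass the test. The comparison set the 4 Dscr1KO and DKO arrays against the 4 ApoeKO and WT arrays, as the average of the Dscr1 effect over both Apoe labels. It called 2 of 7 members at an adjusted p under 0.05, both lower, where 31.7% of 12706 genes were called and 15.4% were called lower. A share of 2 in 7 is thus near the background. All adjusted p-values come from limma, with the Benjamini-Hochberg method applied to 12706 genes. Differences are on the log2(intensity + 3.6) scale with their standard errors (SE).

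The main Rcan1 probe set, 1416600_a_at, read 379.6 and 331.7 in DKO, 477.5 and 335.9 in Dscr1KO, 668.2 and 581.3 in ApoeKO, and 630.4 and 649.5 in WT. All 4 arrays without Dscr1 lay below all 4 with it, and the highest of them was Dscr1KO replicate 1. Rcan1 averaged 381.2 ± 67.8 without Dscr1 and 632.4 ± 37.4 with it (SD, n = 4 each), a log2 difference of -0.74 ± 0.14 (SE; adjusted p = 0.00634). A comparison of the 5 intact arrays with Xist alone, added after seeing the data, gave -0.66 (adjusted p = 0.12). Those are DKO replicate 1 and both arrays each of Dscr1KO and ApoeKO, with no WT. That comparison is thus not the average over Apoe labels, and it holds both libraries of doubtful label. A signal thus remained in each null library. The files used here do not say whether the probes lie inside the deleted stretch, so it does not check the labels.

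The dimmer Rcan1 probe set, 1416601_a_at, read 20 and 12.8 in DKO, 13.3 and 10.5 in Dscr1KO, 32.7 and 18.5 in ApoeKO, and 30.4 and 35.2 in WT. Here DKO replicate 1 reached above ApoeKO replicate 2, so the groups overlapped. Tested with every probe set by itself, it was lower without Dscr1 by a log2 difference of -0.88 ± 0.24 (adjusted p = 0.0312), and the main probe set was called there too (adjusted p = 0.00728). Without both libraries of doubtful label the dimmer one had -0.64 (adjusted p = 0.187). Leaving out a single library also ended this call in 5 cases: WT replicate 1 gave an adjusted p of 0.0849, WT replicate 2 0.12, ApoeKO replicate 1 0.119, Dscr1KO replicate 2 0.0678 and DKO replicate 2 0.0725. With no filter on low signal it was 0.0528.

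**Figure D1:**
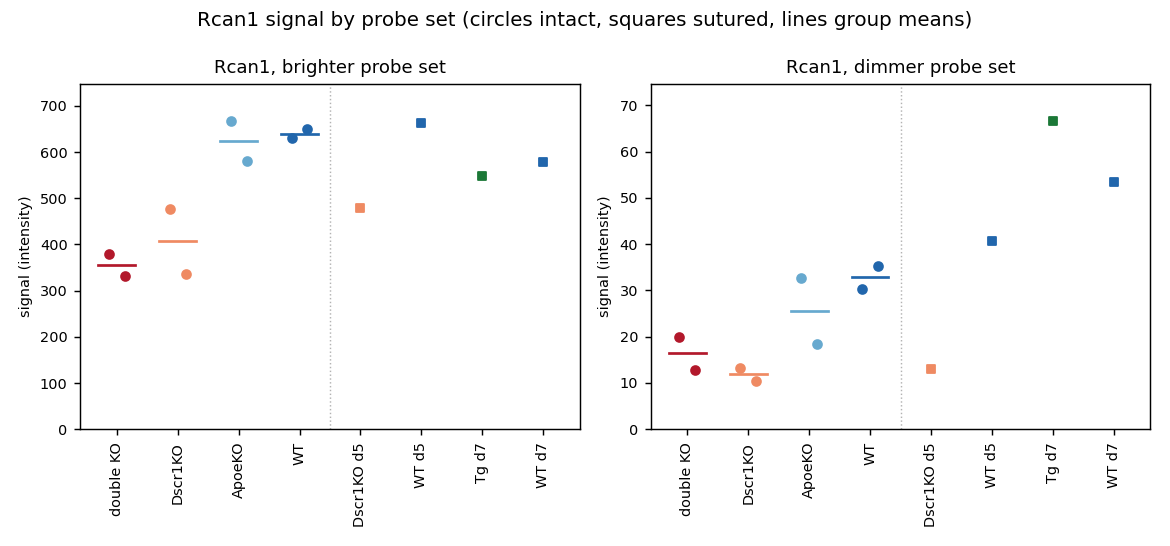
Signal of the Rcan1 probe sets (linear intensity, y axis, from 0) on each of the 12 arrays, by group along the x axis, 1 point per array. The main probe set reads at most 477.5 on the 4 intact arrays without Dscr1 and at least 581.3 on the 4 with it, while the dimmer one overlaps between them and is highest, at 66.7, on the sutured Tg array.

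Of the other Rcan genes, neither passed the test. Rcan3, which encodes a further RCAN protein, read 82.9 and 81.1 in DKO, 81.8 and 42.1 in Dscr1KO, 100.7 and 94.4 in ApoeKO, and 119.1 and 107.9 in WT (probe set 1434027_at). Every array without Dscr1 lay below every array with it, and Dscr1KO replicate 2 lay far below the rest. The log2 difference was -0.57 ± 0.21 (adjusted p = 0.0694). Without Dscr1KO replicate 1 it was -0.80 (adjusted p = 0.00281), and without both libraries of doubtful label -0.33 (adjusted p = 0.216). Over the 7 members, the 4 arrays without Dscr1 lay wholly below the 4 with it for Rcan1, Rcan3 and Ppp3ca, as they did for 17.8% of all 12706 genes.

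Rcan2, which encodes a regulator known from brain and first found as a thyroid hormone responsive gene in human fibroblasts, read 118.8 and 30.7 in DKO, 38.3 and 19.9 in Dscr1KO, 27.3 and 27 in ApoeKO, and 15.1 and 14.6 in WT (probe set 1421425_a_at). DKO replicate 1 was the highest by far, and the groups without and with Dscr1 overlapped through Dscr1KO replicate 2. The log2 difference was 0.92 ± 0.40 (adjusted p = 0.116), 0.46 without DKO replicate 1, and 1.38 (adjusted p = 0.0112) without DKO replicate 2. DKO replicate 1 is the array with the high photoreceptor and neuron markers, among them the neuronal gene Snap25 at 919.8, against at most 14.8 elsewhere. Their part in the Rcan2 value was not tested. Another Rcan2 probe set read 3.7 or less on all arrays, and another Rcan3 probe set 10.8 or less, and both fell below the filter.

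Among the phosphatase subunits, Ppp3ca, the catalytic A alpha gene, moved with Rcan1. Its brightest probe set, 1426401_at, read 669.1 and 570.2 in DKO, 718.8 and 581.3 in Dscr1KO, 976.3 and 936.1 in ApoeKO, and 945.1 and 929.8 in WT. The groups without and with Dscr1 did not overlap, and replicates with Dscr1 lay close together. Ppp3ca averaged 634.9 ± 71.3 without Dscr1 and 946.8 ± 20.6 with it (SD, n = 4 each), a log2 difference of -0.58 ± 0.11 (adjusted p = 0.00763). On the 5 intact arrays with Xist alone, which hold no WT, the difference was -0.55 (adjusted p = 0.12). The other Ppp3ca probe sets did not pass. One, 1452056_s_at, read 383.8 to 504.5 without Dscr1 and 472.4 to 545.8 with it, a log2 difference of -0.27 ± 0.13 (adjusted p = 0.149). Another, 1438478_a_at, read 419.3 to 614.8 without Dscr1 and 521.1 to 592.4 with it, a log2 difference of -0.10 ± 0.15 (adjusted p = 0.669). The fall in Ppp3ca therefore rests on 1 of its 3 probe sets.

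The probe sets of Ppp3cb, the catalytic A beta gene, also disagreed. The brightest, 1428473_at, read 487.3 and 423.1 in DKO, 361.8 and 268.2 in Dscr1KO, 350.2 and 360.5 in ApoeKO, and 363.3 and 375.2 in WT. Both DKO arrays were above all other intact arrays and Dscr1KO replicate 2 was the lowest, and the log2 difference of the Dscr1 average was 0.05 ± 0.13 (adjusted p = 0.776). The probe set 1433835_at read 197.5 and 300.4 in DKO, 326.5 and 165.8 in Dscr1KO, 352.6 and 450.7 in ApoeKO, and 452.4 and 437.9 in WT. All arrays without Dscr1 lay below all with it there, a log2 difference of -0.81 ± 0.23 (adjusted p = 0.0341).

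That Ppp3cb call was lost without both libraries of doubtful label (-0.66, adjusted p = 0.0751). Single libraries ended it too: without WT replicate 1 or WT replicate 2 the adjusted p was 0.106, without ApoeKO replicate 1 it was 0.0689, without ApoeKO replicate 2 it was 0.127, and without DKO replicate 1 it was 0.1. A term for Xist (-0.66, adjusted p = 0.102) and a fit without the intensity trend (adjusted p = 0.0553) ended it as well. Dimmer Ppp3cb probe sets gave -0.15 ± 0.27 (adjusted p = 0.715) and -0.29 ± 0.22 (adjusted p = 0.371), and one at 8.0 or less on every array fell below the filter. Of 14 member probe sets tested by themselves, 4 were called, all lower: both of Rcan1 and 1 each of Ppp3ca and Ppp3cb. Of all 22721 probe sets, 26.2% were called and 13.1% were called lower.

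Ppp3cc, the catalytic A gamma gene best known from testis, was dim. It read 15.4 and 9.1 in DKO, 11.3 and 15.6 in Dscr1KO, 10.5 and 4.0 in ApoeKO, and 12.2 and 9.3 in WT (probe set 1430025_at). The groups overlapped, and the log2 difference was 0.42 ± 0.31 (adjusted p = 0.340). A second Ppp3cc probe set varied between 0.7 and 27.7 and fell below the filter.

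Ppp3r1, which encodes the regulatory B subunit, was bright on every array. It read 751.0 and 714.9 in DKO, 665.4 and 661.6 in Dscr1KO, 736.7 and 731.8 in ApoeKO, and 635.7 and 664.7 in WT (probe set 1433591_at). The groups without and with Dscr1 spanned nearly the same range, with a log2 difference of 0.01 ± 0.09 (adjusted p = 0.930). A dimmer Ppp3r1 probe set, 1421786_at, read 81.3 to 95.5 without Dscr1 and 92.0 to 127.1 with it, with -0.24 ± 0.15 (adjusted p = 0.273). One further probe set carries both Ppp3r1 and Wdr92 as its symbols and was not used.

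**Figure D2:**
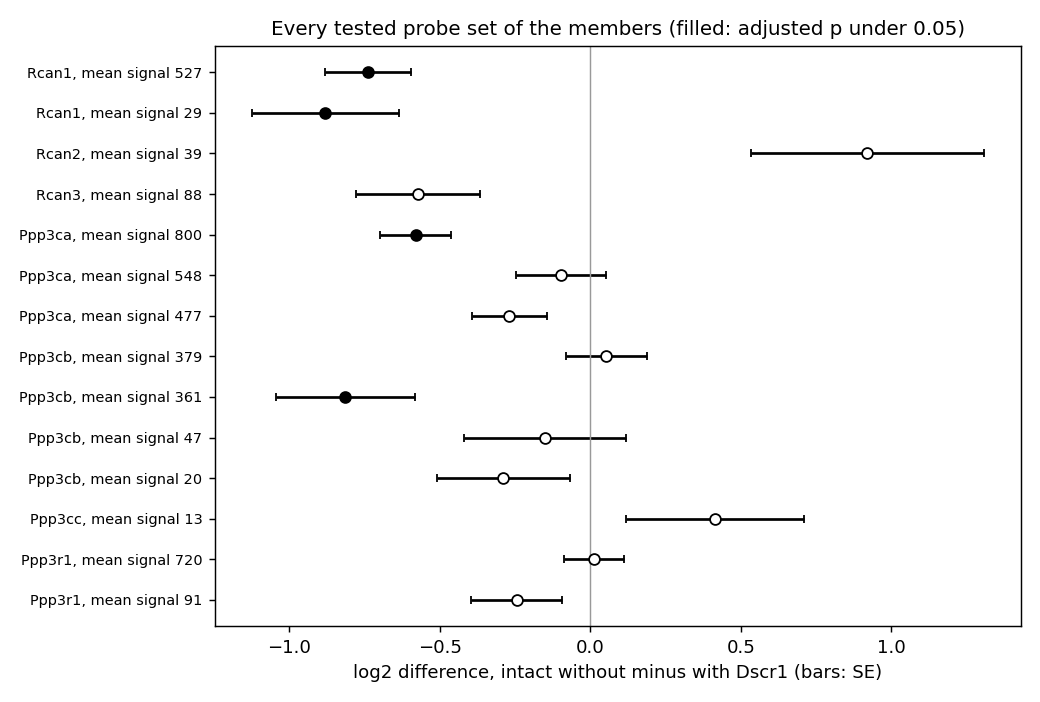
Log2 difference (x axis) between intact corneas without and with Dscr1 for each of the 14 tested member probe sets, with SE bars, filled where the adjusted p was under 0.05. Both Rcan1 probe sets are filled and to the left of 0, whereas Ppp3ca and Ppp3cb each have 1 filled probe set among others closer to 0.

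Markers of other cell types moved with the same split of the intact arrays. Summed signals of 10 blood endothelial markers were 1127.4 to 1870.9 without Dscr1 and 105.7 to 137 with it. Of 9 tested, 8 were called higher and 0 lower, while Kdr read 59.9 to 65.4 without Dscr1 and 67.5 to 86.5 with it. Those of 10 keratinised epithelium markers were 17830 to 33291.1 without Dscr1 and 276.3 to 360.4 with it, with 9 called higher and 1 lower. In that list Ivl read 44.1 to 70 without Dscr1 and 77.4 to 130.8 with it. For 8 macrophage markers the sums were 2585.5 to 4754.3 without Dscr1 and 348.7 to 924.2 with it, with 6 called higher and 0 lower. For 6 neutrophil markers they were 8527.4 to 19541.3 without and 119.1 to 273.7 with it. Of 5 neutrophil markers tested, 5 were called higher, whereas Camp overlapped, at 3 to 15.9 without Dscr1 and 0.9 to 9.8 with it. Most of the neutrophil sums without Dscr1 came from S100a8 and S100a9, at 9010.6 and 10318.8 on Dscr1KO replicate 2. By contrast, sums of 6 corneal epithelial markers overlapped, at 24607.2 to 36490.2 without Dscr1 and 27564.1 to 38061.1 with it. Of these, 0 were called higher and 1 lower, and Pax6 read 1008.2 to 2458.6 without Dscr1 and 3118.4 to 3600.6 with it. Sums of 7 keratocyte markers overlapped too, at 17802.2 to 20728.9 without Dscr1 and 16776 to 24398.2 with it, with 2 called higher and 1 lower. Corneal endothelial markers, 5 in number, summed to 1005.9 to 2516.8 without Dscr1 and 2771.2 to 4641.6 with it. Sums of 6 smooth muscle and pericyte markers were 1159.1 to 4061.8 without Dscr1 and 306.5 to 382.5 with it. Of 5 tested, 2 were called higher and 0 lower. Rgs5 read 758.7 to 2778.3 without Dscr1 and 10.6 to 45.3 with it, whereas Myh11 overlapped, at 13.6 to 26.1 and 14.5 to 23.6. Sums of 6 T cell markers were 42.3 to 215.3 without and 17.4 to 31.1 with it, but only 1 was bright enough to be tested and 0 were called. Pigment cell markers, 5 in number and all called lower, summed to 224.4 to 482.8 without Dscr1 and 708.7 to 909 with it. Lens markers, 8 in number, set the WT arrays apart, at 7565.9 and 5505.8, against at most 629.3 on the other intact arrays. The sutured Dscr1KO array lay below the intact arrays without Dscr1 in keratinised epithelium (341.6), neutrophil (1128.4), blood endothelial (977) and T cell sums (33.4). It lay above them in pigment cell (1738.7) and corneal endothelial sums (4746.9), and within their range for macrophages (3459) and for smooth muscle and pericytes (2106.3). The part of the shifts between intact groups in the Rcan1, Rcan3 and Ppp3ca values was not tested. In whole tissue, fewer cells of a type and less RNA per cell cannot be told apart.

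In the pairwise comparisons, DKO corneas gave the calls. Against WT, DKO had lower Rcan1 (-0.84 ± 0.20, adjusted p = 0.0217) and lower Ppp3ca (-0.60 ± 0.16, adjusted p = 0.0369), 2 of 7 members where 20.1% of genes were called and 8.74% were called lower. Rcan2 had a difference of 1.81 ± 0.56 (adjusted p = 0.0584), 0.90 without DKO replicate 1 and 2.73 (adjusted p = 0.00972) without DKO replicate 2. It also passed without Dscr1KO replicate 1 (adjusted p = 0.0441) or replicate 2 (adjusted p = 0.0438), at the same difference. Rcan3 had -0.45 ± 0.29 (adjusted p = 0.318). Both calls were lost without WT replicate 1, WT replicate 2 or DKO replicate 1, where Rcan1 had adjusted p-values of 0.115, 0.145 and 0.0538 and Ppp3ca 0.18, 0.184 and 0.0563. Without DKO replicate 2 both were lost as well, at 0.081 for Rcan1 and 0.122 for Ppp3ca, and Rcan2 was the 1 call. Without ApoeKO replicate 1 or 2, only the Ppp3ca call was lost (adjusted p = 0.084 and 0.0842). A term for Xist, set by the difference between the DKO replicates, gave Rcan1 an adjusted p of 0.0546 and Ppp3ca 0.0563. Without the intensity trend in limma Ppp3ca had 0.0731. With every probe set tested by itself in limma, the dimmer Rcan1 probe set was not called (-0.88 ± 0.35, adjusted p = 0.123). Neither were the Ppp3ca probe sets 1452056_s_at (-0.19 ± 0.18, adjusted p = 0.524) and 1438478_a_at (-0.11 ± 0.21, adjusted p = 0.774).

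Against ApoeKO, DKO again had lower Rcan1 (-0.81 ± 0.20, adjusted p = 0.0271) and lower Ppp3ca (-0.63 ± 0.16, adjusted p = 0.0328), where 19.6% of genes were called and 8.61% were called lower. Without both libraries of doubtful label, Ppp3ca had an adjusted p of 0.0745 and Rcan1 stayed past the threshold. With a term for Xist, the adjusted p was 0.0941 for Rcan1, 0.109 for Ppp3ca and 0.0247 for Rcan2, and without the intensity trend in limma 0.051 for Rcan1 and 0.0664 for Ppp3ca. Leaving out any 1 of the WT, ApoeKO or DKO arrays ended both calls. Rcan1 then had adjusted p-values of 0.0631 and 0.0633 without WT replicates 1 and 2, 0.175 and 0.11 without ApoeKO replicates 1 and 2, and 0.0626 and 0.093 without DKO replicates 1 and 2. For Ppp3ca they were, in the same order, 0.0747 and 0.0748, 0.186 and 0.16, and 0.0547 and 0.109. Rcan2 had a difference of 1.08 ± 0.56 (adjusted p = 0.218), 0.16 without DKO replicate 1 and 1.99 (adjusted p = 0.0241) without DKO replicate 2. Of the other probe sets, tested by themselves in limma, the dimmer Rcan1 one was not called (-0.53 ± 0.35, adjusted p = 0.342). The Ppp3ca probe sets 1452056_s_at (-0.18 ± 0.18, adjusted p = 0.542) and 1438478_a_at (-0.17 ± 0.21, adjusted p = 0.622) were not called either. The comparisons of DKO with ApoeKO and with WT share the DKO arrays.

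Dscr1KO against WT called none of the 7 members with limma, where 11.8% of genes were called. An unadjusted limma p under 0.05 was found for 3 members and for 3742 of 12706 genes. Rcan1 had -0.67 ± 0.20 (adjusted p = 0.0661), Ppp3ca -0.53 ± 0.16 (adjusted p = 0.0721) and Rcan3 -0.90 ± 0.29 (adjusted p = 0.0852). Rcan2 had 0.77 ± 0.56 (adjusted p = 0.399). The replicates of Dscr1KO lay far apart for these genes. Without Dscr1KO replicate 1, the differences were -0.92 for Rcan1, -0.69 for Ppp3ca and -1.36 for Rcan3. Dscr1KO then rested on replicate 2 alone, the library whose source label names ApoE-/-. Without Dscr1KO replicate 2 the differences were -0.42, -0.38 and -0.45, in the same order. Without both libraries of doubtful label the adjusted p-values were 0.263 for Rcan1, 0.319 for Ppp3ca and 0.363 for Rcan3.

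No member was called by Apoe label. In ApoeKO against WT, 0 of 7 members were called by limma, where 0.0236% of genes were called. An unadjusted p under 0.05 was found for 0 members and for 477 of 12706 genes. Rcan2 was the highest, with a log2 difference of 0.74 ± 0.56, and Ppp3cc the lowest, with -0.46 ± 0.44. In DKO against Dscr1KO, 0 of 7 were called, again beside 0.0236% of genes. By an unadjusted limma p under 0.05, 1365 of 12706 genes passed, among them 1 member, Ppp3cb. On its brightest probe set the difference was 0.54 ± 0.18 (adjusted p = 0.410), with both DKO arrays above both Dscr1KO arrays. Other Ppp3cb probe sets, tested by themselves in limma, gave 0.06 ± 0.33 (1433835_at, adjusted p = 0.957) and 1.56 ± 0.38 (1427468_at, adjusted p = 0.332). The dimmer 1428474_at gave 0.24 ± 0.31 (adjusted p = 0.807). By brightest probe set, Rcan2 had the largest difference of the members in DKO against Dscr1KO, 1.05 ± 0.56 (adjusted p = 0.549). Rcan1 differed by -0.17 ± 0.20 (adjusted p = 0.781).

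Whether the Dscr1 effect itself differed between the Apoe labels was tested as an interaction. No member was called, beside 0.00787% of genes, and 0 had an unadjusted p under 0.05 in limma, where 962 of 12706 genes did. Ppp3cb came closest, with 0.59 ± 0.26 (adjusted p = 0.662), and its brightest probe set was on average above ApoeKO in DKO and below WT in Dscr1KO. Its other probe sets, by themselves in limma, gave 0.22 ± 0.46 (1433835_at, adjusted p = 0.926) and 2.01 ± 0.54 (1427468_at, adjusted p = 0.530). The dimmer 1428474_at gave 0.49 ± 0.44 (adjusted p = 0.813). For Rcan1 the difference of effects was -0.14 ± 0.28 (adjusted p = 0.920), and for Ppp3ca -0.09 ± 0.23 (adjusted p = 0.939).

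**Figure D3:**
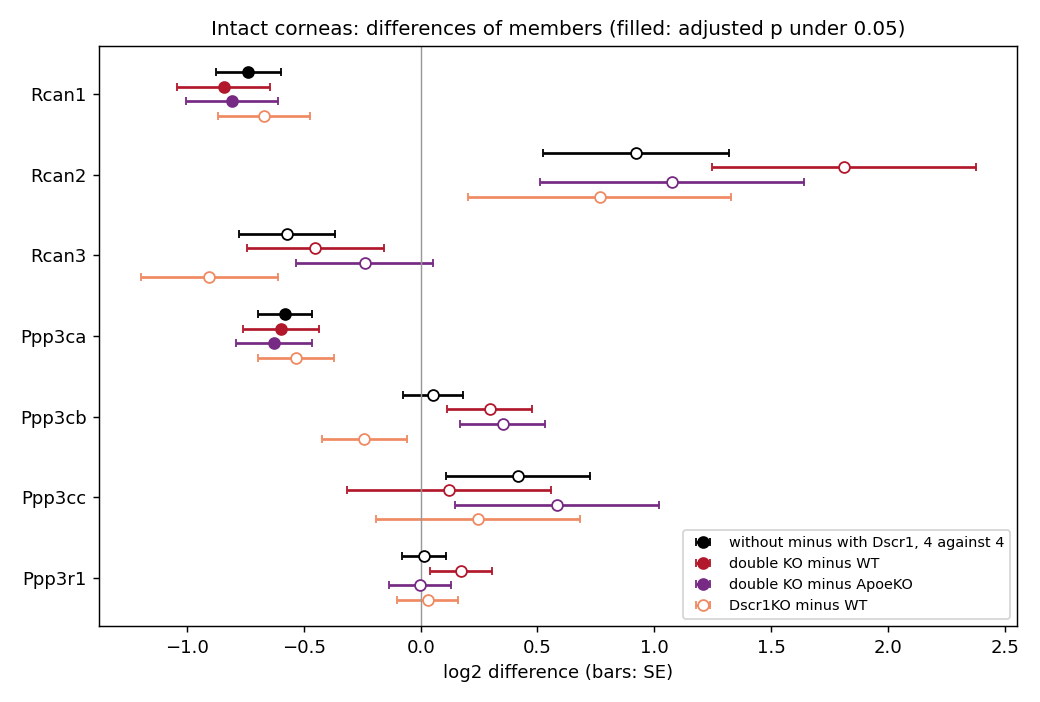
Log2 differences (x axis, with SE bars) of the 7 members, filled where the adjusted p was under 0.05. The comparisons drawn are the Dscr1 average, DKO against WT, DKO against ApoeKO and Dscr1KO against WT. Rcan1 and Ppp3ca are to the left of 0 in each of these, and Ppp3r1 differs from 0 by at most 0.172.

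Suturing was read in the 3 sutured Dscr1KO and WT arrays against the 4 intact ones of those genotypes, with genotype as a term. No member was called by limma, and neither was any other gene (0% of 12706), while 1251 genes and 1 member had an unadjusted p under 0.05. That member was Rcan2, which read 53.0 in sutured Dscr1KO at day 5, 49.1 in sutured WT at day 5 and 36.2 in sutured WT at day 7, against 38.3 and 19.9 in intact Dscr1KO and 15.1 and 14.6 in intact WT. Within each genotype the sutured arrays were above the intact ones, with a log2 difference of 1.13 ± 0.27 (adjusted p = 0.398).

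Rcan1 in those sutured corneas did not pass the test. It read 479.1 in sutured Dscr1KO at day 5 and 663.6 and 579.7 in sutured WT at days 5 and 7, with a difference of 0.08 ± 0.16 (adjusted p = 0.903). The direction of that small difference turned to -0.03 without Dscr1KO replicate 2. Ppp3cc had 0.50 ± 0.24 (adjusted p = 0.531) and Ppp3r1 0.21 ± 0.11 (adjusted p = 0.553). Rcan3, Ppp3ca and Ppp3cb differed by 0.05 ± 0.28, -0.02 ± 0.16 and 0.19 ± 0.15.

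Between sutured genotypes there was 1 array each, so these differences have no replicate check. At day 5, Rcan1 was 479.1 in Dscr1KO and 663.6 in WT on the main probe set, a log2 difference of -0.47. The dimmer Rcan1 probe set read 13.1 in Dscr1KO and 40.6 in WT, a difference of -1.40, the 1 of 14 member probe sets past 2-fold there, where 5.37% of probe sets were and 1.83% were lower. At the gene level 0 of 7 members passed 2-fold, beside 6.1% of genes, and Ppp3ca read 793.1 in Dscr1KO against 752.5 in WT, a difference of 0.08. On its brightest probe set Ppp3ca was thus not lower in the sutured Dscr1KO array, unlike in the intact ones. Its other probe sets disagreed. The probe set 1438478_a_at read 461.5 in sutured Dscr1KO and 561.9 in WT, a difference of -0.28. By contrast, 1452056_s_at read 518.8 and 476.6, a difference of 0.12. Intact Dscr1KO and WT also differed in Xist, whereas these sutured arrays were both low, at 6 in Dscr1KO and 9.6 in WT. The difference between the intact and sutured contrasts was not tested.

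At day 7, the Tg array read 548.3 on the main Rcan1 probe set, against 579.7 in WT, a log2 difference of -0.08, and 66.7 against 53.4 on the dimmer one, a difference of 0.30. The Tg array was thus below WT on the one and above it on the other. The files used here do not say whether these probes cover the transgene. Rcan3 read 67.5 in Tg and 100.3 in WT, a difference of -0.55, the largest in size among the members, and none passed 2-fold, beside 4.29% of genes. Between WT at day 7 and WT at day 5, Rcan2 differed most, at -0.41 (36.2 at day 7 and 49.1 at day 5), Rcan1 by -0.19 on the main and 0.37 on the dimmer probe set, and no member passed 2-fold, beside 5.32% of genes.

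By group, the main Rcan1 probe set was lowest in intact DKO, at 355.7 ± 33.9, followed by intact Dscr1KO, at 406.7 ± 100.1 (SD, n = 2 each). Next came the single sutured arrays of Dscr1KO at 479.1, Tg at 548.3 and WT at day 7 at 579.7. The highest were intact ApoeKO at 624.8 ± 61.4 and intact WT at 640.0 ± 13.5 (SD, n = 2 each) and sutured WT at day 5 at 663.6. DKO and Dscr1KO were neighbours that did not differ beyond their spread, and neither did ApoeKO and WT.

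**Figure D4:**
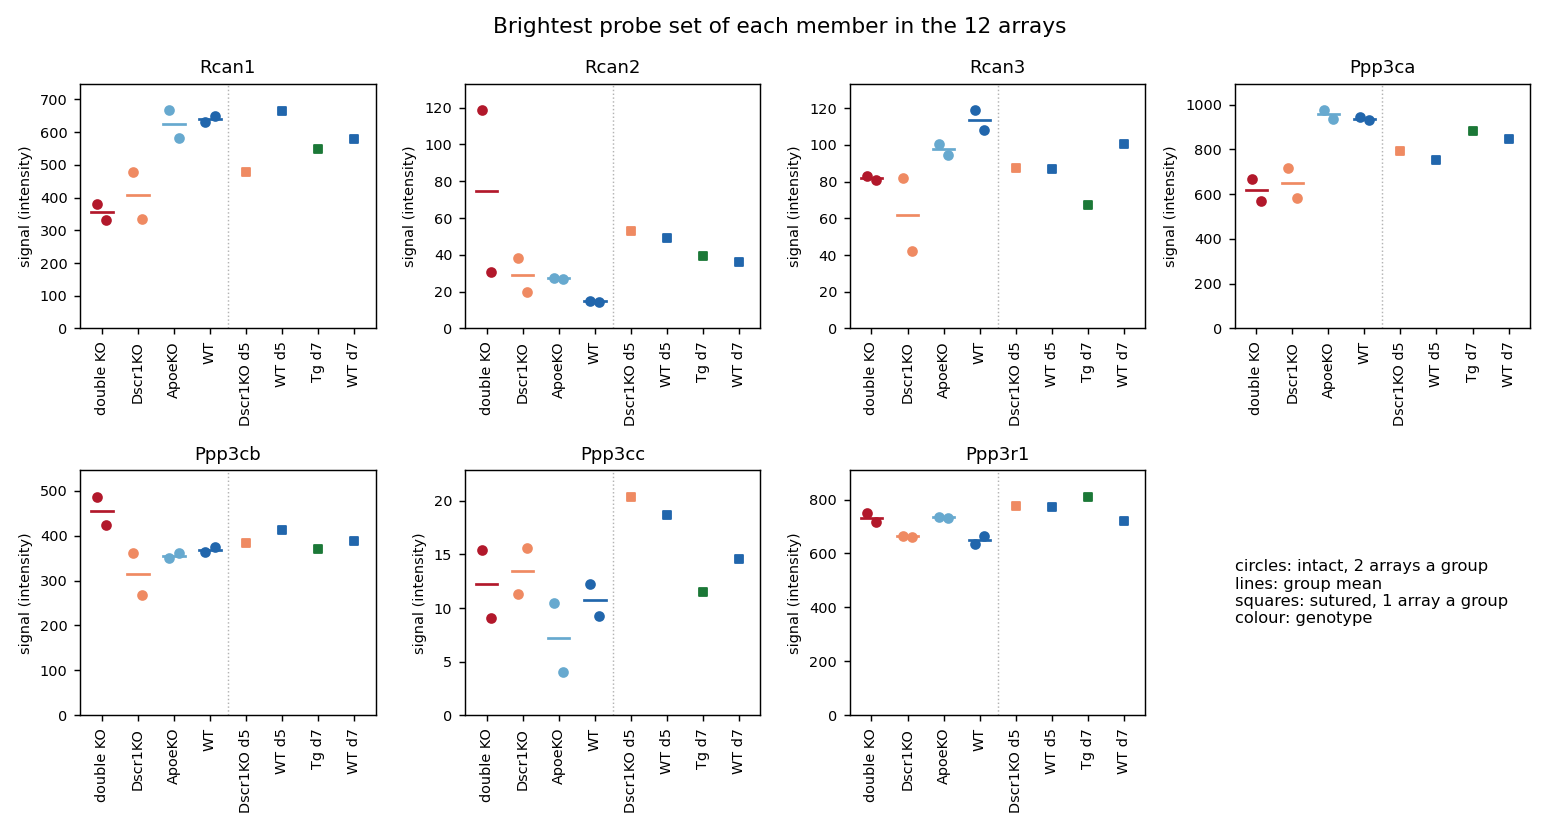
Signal of each member's brightest probe set (linear intensity, y axes from 0, a panel per gene) on the 12 arrays, by group along the x axis, 1 point per array. Rcan1 and Ppp3ca dip in the 4 intact arrays without Dscr1, Rcan2 peaks at 118.8 on 1 DKO array, and Ppp3r1 lies between 635.7 and 810.9 throughout.

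Likeness of pattern was described by Pearson's r of log2 values over the 12 arrays, which share the split by Dscr1 label and their libraries. Among 12705 other tested genes, those closest to Rcan1 were Cyp2s1 (r = 0.970), Flii (r = 0.960) and Fam241b (r = 0.958). Closest to Ppp3ca were Tmprss2 (r = 0.989), Nyap1 (r = 0.978) and Gstk1 (r = 0.976), and to Rcan3 Crebl2 (r = 0.954), Gnl3l and Mkrn3 (r = 0.944 each). Rcan2 was closest to Cyp1b1 (r = 0.950), Scara5 (r = 0.923) and Impact (r = 0.916). Lower values came for Ppp3cb with Tmem131 (r = 0.917), Psip1 (r = 0.913) and Etf1 (r = 0.912), for Ppp3r1 with Crk (r = 0.914), Ppp4r2 (r = 0.902) and Gna13 (r = 0.876), and for Ppp3cc with Wfikkn1 (r = 0.890), Lamc1 (r = 0.871) and Fbxo17 (r = 0.852). Among the members themselves, Rcan1 and Ppp3ca were the most alike pair (r = 0.904), while Rcan1 and Ppp3r1 had r = 0.074.

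Genes beside Rcan1 on chromosome 16 were looked at because the null allele lies there. Of the 8 nearest RefSeq genes, 4 on either side, 4 were on the array and 2 were tested, and none was called in the Dscr1 average. Gm29805 had 0.20 ± 0.31 (adjusted p = 0.663) and Clic6, which encodes a chloride channel protein, 0.65 ± 0.46 (adjusted p = 0.316). Kcne1, a potassium channel subunit gene, was too dim to be tested, at 0.4 to 1.3 in the 4 intact arrays without Dscr1 and 2.4 to 9.8 in the 4 with it. The fourth, 2410124H12Rik, was too dim as well, at 10.6 or less.

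The pathway around calcineurin was followed in 6 lists of genes, in the Dscr1 average. The lists were chosen with earlier results of these data known, so their counts beside the background only describe these arrays. Of 8 tested NFAT targets of endothelium, 5 were higher and 1 lower without Dscr1, with a median log2 difference of 1.70, beside -0.02 over all 12706 genes, of which 16.3% were called higher. Selp, the gene of the adhesion molecule P-selectin, read 145.4 and 165.3 in DKO and 152.7 and 84.7 in Dscr1KO, against 6.4 and 1.8 in ApoeKO and 1.6 and 0.8 in WT. Its log2 difference was 4.53 ± 0.29 (adjusted p = 7.35e-05). Icam1, an adhesion molecule gene, had 2.97 ± 0.17 (adjusted p = 4.34e-05) and Egr3, an early-response transcription factor gene, 2.93 ± 0.33 (adjusted p = 0.000735). All arrays without Dscr1 were above all arrays with it for these 3 genes. The 1 lower gene was F3, which encodes tissue factor. Of the 6 calls in this list, 5 were left without both libraries of doubtful label, 4 to 8 when 1 array was left out, and 3 on the 5 intact arrays with Xist. Endothelial, neutrophil and macrophage marker sums, given above, were higher on the same arrays, and their part in this list was not tested.

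Of 4 tested calcineurin partners, 2 were higher and 0 lower, with a median of 0.58. Fkbp1a, whose product forms the complex with the drug FK506 that blocks calcineurin, read 833 and 761 in DKO and 723.1 and 678.5 in Dscr1KO, against 305.1 and 243.3 in ApoeKO and 273.4 and 320.1 in WT. The groups were far apart, with a log2 difference of 1.38 ± 0.12 (adjusted p = 0.000271). Its relative Fkbp1b had 0.82 ± 0.21 (adjusted p = 0.0230), and 0.78 (adjusted p = 0.0908) without both libraries of doubtful label. That call also ended without WT replicate 1, WT replicate 2, ApoeKO replicate 1, ApoeKO replicate 2 or Dscr1KO replicate 2, with adjusted p-values of 0.0619, 0.0951, 0.0543, 0.0898 and 0.0513. Of 5 NFAT factors, 1 was higher and 1 lower, with a median of 0.05. Nfatc2, a calcineurin substrate, read 112.9 and 95.2 in DKO and 213.3 and 114.5 in Dscr1KO, against 325.4 and 283.3 in ApoeKO and 253.4 and 269.2 in WT, with a log2 difference of -1.12 ± 0.20 (adjusted p = 0.00480). Nfatc1 had 0.64 ± 0.20 (adjusted p = 0.0480), a call that was lost without any 1 of WT replicates 1 and 2, ApoeKO replicates 1 and 2, Dscr1KO replicate 1 and DKO replicates 1 and 2 (adjusted p-values of 0.13, 0.141, 0.13, 0.131, 0.0664, 0.0639 and 0.105).

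Of 8 kinases of NFAT and RCAN, 0 were higher and 1 lower. It was Gsk3b, a kinase that phosphorylates NFAT, with -0.32 ± 0.10 (adjusted p = 0.0458), and -0.36 (adjusted p = 0.0878) without both libraries of doubtful label. Leaving out WT replicate 1 or 2 (adjusted p = 0.172 and 0.112), ApoeKO replicate 1 or 2 (0.139 and 0.157) or DKO replicate 1 or 2 (0.0545 and 0.0899) ended the call too. Without Dscr1KO replicate 1, 3 of these kinases were called. Of 9 genes of calcium entry and release, 2 were higher and 1 lower, with a median of 0.49. That count of 3 called was 6 without Dscr1KO replicate 1, 5 without DKO replicate 1 and 5 with a term for Xist. Itpr3, an inositol trisphosphate receptor gene, had -0.68 ± 0.12 (adjusted p = 0.00424), Stim2, a sensor of calcium stores, 0.62 ± 0.11 (adjusted p = 0.00449), and Plcg1, a phospholipase gene, 0.65 ± 0.12 (adjusted p = 0.00576). Of 9 other calcineurin substrates, 1 was higher and 0 lower: Mef2c, a transcription factor gene, with 1.68 ± 0.22 (adjusted p = 0.00151). There were 3 called without DKO replicate 2, 2 without ApoeKO replicate 1, 2 with a replicate block and 0 with a filter at the 60th percentile. On the 5 intact arrays with Xist alone, which hold no WT, Selp, Icam1, Egr3 and Fkbp1a passed. The other genes named from these lists did not, apart from F3, which was not refitted there. Under quantile normalization the Fkbp1b, Nfatc1 and Gsk3b calls were lost (adjusted p = 0.0559, 0.0957 and 0.0746), and with a term for Xist those of Nfatc1 (0.0652) and Gsk3b (0.0543). Both were also lost with a replicate block (adjusted p = 0.0663 for Nfatc1 and 0.0736 for Gsk3b) and with no filter (0.0726 and 0.058), and that of Gsk3b without the intensity trend (0.087) and with every probe set by itself (0.0602). In the suturing comparison, 0 genes of these 6 lists were called.

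**Figure D5:**
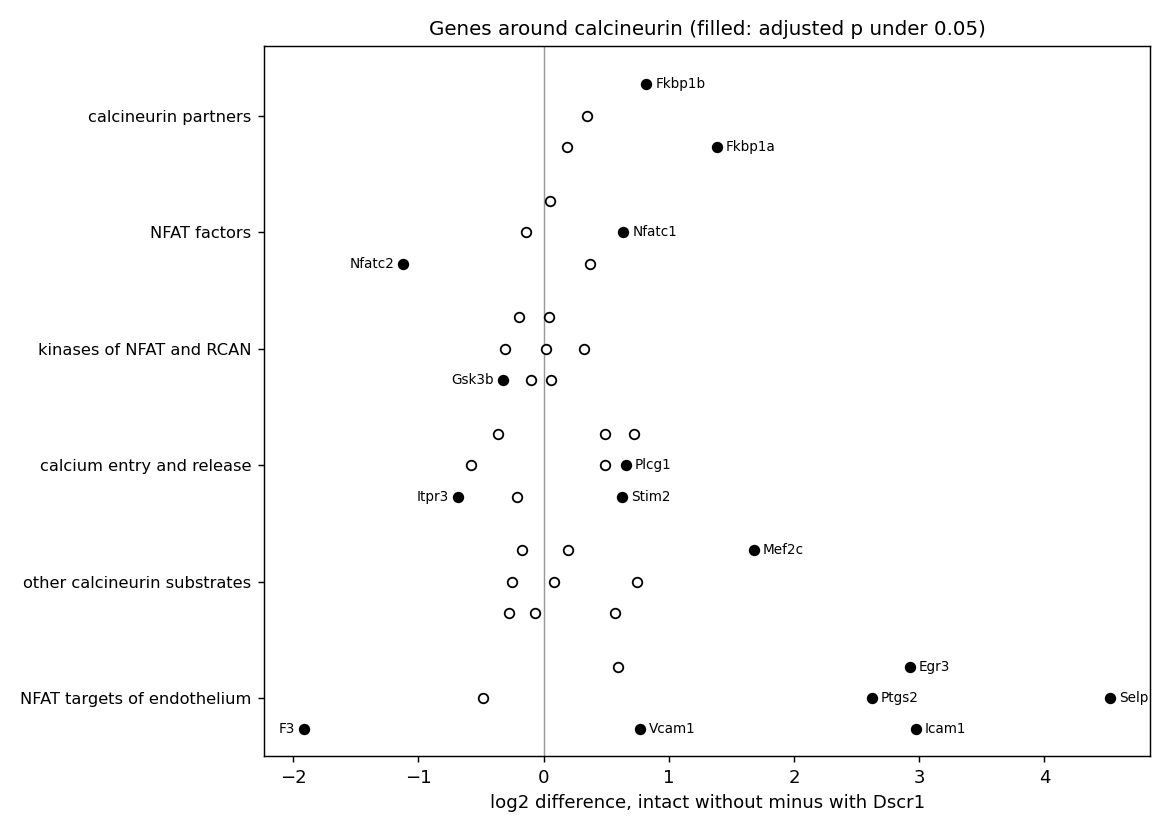
Log2 difference (x axis) between intact corneas without and with Dscr1 for the tested genes of the 6 pathway lists, 1 row of points per list, filled and named where the adjusted p was under 0.05. The NFAT targets of endothelium spread widest, with Selp at 4.53 and F3 at -1.91, and the kinases of NFAT and RCAN lie closest to 0.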

How the data were processed

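Per the labels' protocols, total RNA from whole corneas was extracted with RNeasy, and 100 ng of it gave biotin-labelled cRNA. What the authors deposited is a linear signal (intensity) per probe set. Each array's mean is 100 once 2% of values are trimmed at either end, so the arrays share a scale. The sources used here name no software for these signals. Title labels set the groups. The members and gene lists were chosen with earlier results of these data known.

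Gene symbols came from the platform table (34958 probe sets with 1 symbol, 932 with several, 9211 with none), and positions and promoters from RefSeq tables (GRCm38.p6). The 20th percentile of all values, 3.6, was added before taking log2, which understates folds of dim genes. A gene was tested if its mean reached the 40th percentile over probe sets, which left 12706. The 4 intact genotypes shared a limma 3.58.1 fit (R 4.3.3; lmFit, eBayes with a trend on intensity; Benjamini-Hochberg adjusted p under 0.05). Suturing was fitted on 7 arrays with a Dscr1 genotype term. A p-value weighs a difference against the spread between these samples. Single sutured arrays had no test, and 2-fold was the size described. The code was tested on simulated data.

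Genes named are the members, the 3 nearest patterns of each, up to 3 called genes per pathway list with the lowest adjusted p, Apoe, Xist and the 4 RefSeq genes on either side of Rcan1. F3, Snap25, Kera, Krt12, Rgs5, Myh11, Pax6, Ivl, Kdr, Camp, S100a8 and S100a9 were named after their values were seen. Replicate numbers did not pair the samples. Alternatives were other filters, constants, normalization and trend, every probe set by itself, only the groups compared, arrays left out, a replicate block and a term for Xist. Plots were made with matplotlib 3.10.9 under python 3.11.15.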

Additional observations from a re-analysis of the deposited data

Results flagged for a closer look

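Among 28 groups of 4 intact arrays (14 tested probe sets, without and with Dscr1), 3 held an array far from the other three on the log2 scale, where chance alone gives about 1 in 20. Rcan3 (probe set 1434027_at) read 42.1 in Dscr1KO replicate 2 and 81.1 to 82.9 on the other arrays without Dscr1, a gap of 0.967 of the group's range. A dim Ppp3cb probe set, 1428474_at, read 11.8 in the same library and 18.3 to 19.2 on the others, a gap of 0.897 of the range. The Ppp3cb probe set 1433835_at read 352.6 in ApoeKO replicate 1 and 437.9 to 452.4 on the other arrays with Dscr1, a gap of 0.869 of the range. These are the libraries whose Apoe signal or source label disagreed with their group, and the part of that in the values was not tested.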

How the results depend on the processing

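Rcan1 and Ppp3ca kept their direction in the Dscr1 average under each of 19 settings and passed the threshold in 18, with log2 differences of -0.864 to -0.563 for Rcan1 and -0.657 to -0.489 for Ppp3ca. The exception, added after seeing the data, used only the 5 intact arrays with Xist (3 without and 2 with Dscr1). With no WT array among them, it was not the average over Apoe labels. It called 683 genes and 0 members, and both genes had an adjusted p of 0.12. Rcan3 passed in 2 of 19, under quantile normalization (-0.661, adjusted p = 0.0436) and without Dscr1KO replicate 1. The count of members called in DKO against WT was 2, beside 2555 of 12706 genes. It was 1 without the intensity trend, beside 2253 genes, and 0 with a term for Xist, beside 1577. In DKO against ApoeKO it was 2 beside 2493 genes, 0 without the trend, beside 2131, and 1 with the Xist term, beside 2089. With arrays left out, member counts in these comparisons and in Dscr1KO against WT moved, and so did the counts over all genes. Signs turned for Ppp3r1 in the Dscr1 average (-0.00278 without WT replicate 1, -0.00446 without DKO replicate 1 and with the Xist term, -0.0862 on the Xist arrays, and up to 0.0309 with arrays left out) and for Ppp3cb there (-0.0526 without Dscr1KO replicate 1, up to 0.161 with others left out). With the Xist term, which rests on the difference between the DKO replicates, Rcan2 became -1.07 in Dscr1KO against WT and -1.10 in ApoeKO against WT. Rcan1 under suturing, up to 0.154 with arrays left out, became -0.0282 without Dscr1KO replicate 2 or both doubtful libraries, and -0.0447 without sutured Dscr1KO, on WT arrays only and with a genotype by suturing term. The replicate numbers did not pair the samples (correlations of deviations between groups -0.05 to 0.07). With a replicate block, the count in DKO against WT was 3, since Rcan2, still 1.81, had an adjusted p of 0.0414, and the member counts in the other intact comparisons did not change. Of 707 values of members and named genes under alternatives, 597 kept direction and side of the threshold. What causes these shifts was not tested, and the few arrays per group limit what can be seen.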
